A study of Rattus norvegicus with 2 samples.

Results

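The cells described here were vascular smooth muscle cells (VSMCs) of the rat carotid artery with few transcripts of Spp1 and Notch1, 2119 of the 8977 cell barcodes in the data. They were chosen by their own counts of unique molecular identifiers (UMIs, 1 per captured RNA molecule). A barcode was kept with at least 2000 UMIs, of which mitochondrially encoded genes with an Mt- symbol took at most 20%. At least 1% of its UMIs had to come from the smooth muscle genes Acta2, Tagln, Myl9, Myh11, Cnn1 and Cald1, and less than 1% from the fibroblast genes Col1a1, Col3a1, Dcn and Lum. It then had to hold fewer than 3 UMIs of Spp1 and fewer than 2 of Notch1. Differences in these 12 genes are therefore descriptions of the choice.

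The study followed the artery after balloon injury, a model of in-stent restenosis, with single-cell RNA sequencing on the 10x Genomics platform. The control group was the left common carotid artery without treatment, and the case group was the right common carotid artery 28 days after repeated inflation of a balloon catheter, with the external carotid branch tied off. Both came from the same 2 male Sprague-Dawley (SD) rats, 12 weeks old in the sample labels, whose arteries were pooled into 1 library per side after digestion with trypsin and collagenase. There was thus 1 library per group, the side of the body went with the treatment, and no spread between animals could be measured. Ranges in brackets after a share or a log2 difference are exact 95% intervals that cover counting error only, and no difference was tested.

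Mature VSMCs contract through smooth muscle actin and myosin, assembled with calponin, transgelin, caldesmon and tropomyosin. They are not fixed in this state. After injury they can lower these genes, divide, migrate and lay down matrix, a change known as the switch from a contractile to a synthetic phenotype, in which the secreted phosphoprotein Spp1 (osteopontin) often serves as a marker. Serum response factor and its partner myocardin drive many contractile genes from CArG boxes, which serum response factor also uses in immediate early genes such as Egr1.

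To show such elements, the RefSeq promoters (build GRCr8, 250 bases before to 50 bases after the start) of 2 genes are given, with CArG boxes and near matches in capitals. Acta2 encodes smooth muscle alpha actin and differed most between the libraries among the 6 markers. Egr1, an immediate early transcription factor, was chosen after its values were seen, as one of the genes that varied most from cell to cell.
Acta2, chr1:241172454-241172753, minus strand: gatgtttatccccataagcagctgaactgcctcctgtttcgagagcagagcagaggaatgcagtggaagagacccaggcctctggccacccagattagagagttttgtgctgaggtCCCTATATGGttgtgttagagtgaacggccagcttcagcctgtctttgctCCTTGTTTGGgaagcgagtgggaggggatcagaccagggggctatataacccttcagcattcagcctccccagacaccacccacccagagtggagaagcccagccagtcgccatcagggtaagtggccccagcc
Egr1, chr18:26736828-26737127, plus strand: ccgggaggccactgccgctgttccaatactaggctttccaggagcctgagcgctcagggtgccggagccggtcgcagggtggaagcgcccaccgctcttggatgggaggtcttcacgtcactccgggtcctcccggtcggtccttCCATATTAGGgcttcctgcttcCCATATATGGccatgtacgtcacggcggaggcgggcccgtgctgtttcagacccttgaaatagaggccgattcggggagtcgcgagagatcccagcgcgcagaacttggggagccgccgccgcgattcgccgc

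A CArG box was read as CC, then 6 bases that are each A or T, then GG, which reads alike on both strands, and a near match as the same with 1 G or C among the 6. Egr1 held 2 boxes, 105 and 83 bases before its start. Acta2 held no box and 2 near matches, 134 and 84 bases before its start. Among 28 promoters of 27 contractile genes found in the table, 2 (7.14%) held a box, those of Cnn2 and Ldb3, against 548 of all 33469 promoters (1.64%). Counted with near matches, the shares were 10.7% and 9.42%. Tagln, Myl9 and Myh11 were not among the promoters used here, and a match of letters is not a measured site.

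The control library held 24968329 UMIs in 3321 barcodes and the case library 28232614 UMIs in 5656 barcodes. The 2 filters on UMIs and mitochondrial share kept 1999 control and 4659 case cells. Of these, 399 control cells (19.96%, exact 95% interval 18.2 to 21.8) and 1720 case cells (36.9%, 35.5 to 38.3) were members. The smooth muscle limits alone were passed by 49.1% of kept control and 50.6% of kept case cells, before the limits on Spp1 and Notch1 were added. With at least 2% smooth muscle UMIs required instead of 1%, members were 15.86% of kept control and 19.73% of kept case cells. Members made up 40.7% of smooth muscle cells in the control library and 73.0% in the case library. Depth moved with this difference, since members held a median of 11305 UMIs in the control library and 5343 in the case library. When every smooth muscle cell was thinned at random to 2000 UMIs before Spp1 and Notch1 were counted, a setting chosen after seeing the data, 93.1% of control and 94.1% of case smooth muscle cells passed both limits. Few cells of either library reach the limits at that depth (5.61% of control and 4.37% of case smooth muscle cells held 3 or more Spp1 UMIs), so these shares do not show how much of the difference between 40.7% and 73.0% goes with depth. A total of 21 barcodes occurred in both libraries, 1 of them as a member in each.

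**Figure D1:**
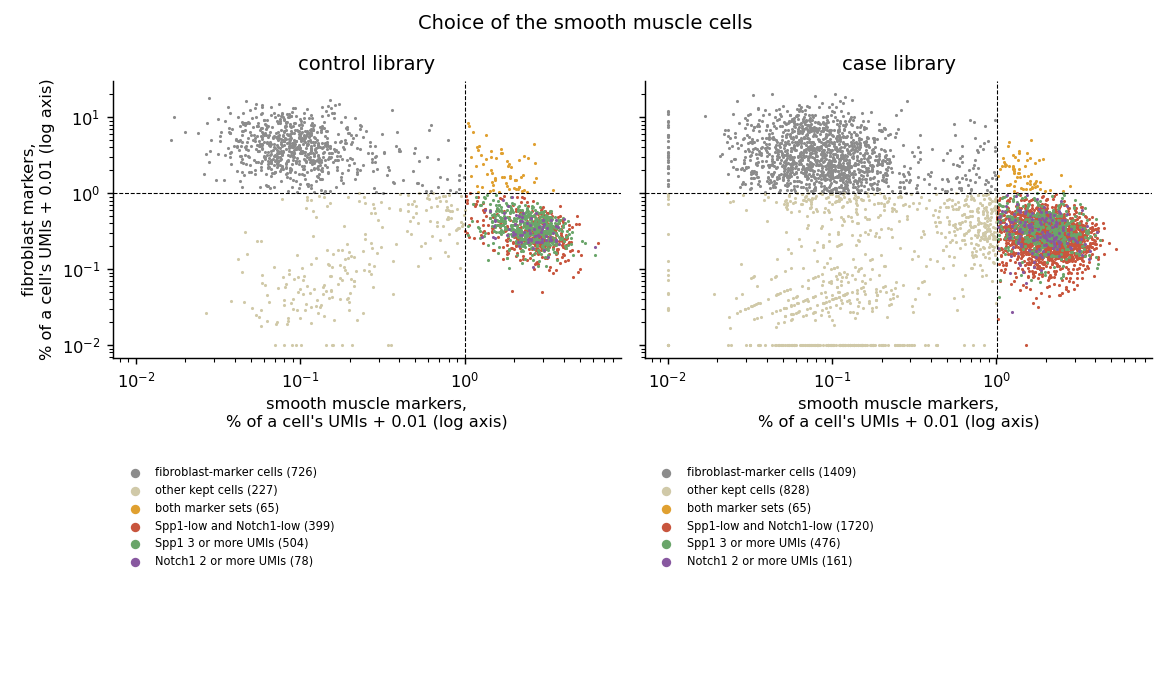
Share of each kept cell's UMIs in the 6 smooth muscle markers (x axis) and in the 4 fibroblast markers (y axis), each in percent plus 0.01 on a log axis, with 1 point per cell; dashed lines mark the limits of 1%. The 399 control and 1720 case members lie at the lower right, in the same area as the smooth muscle cells with 3 or more Spp1 or 2 or more Notch1 UMIs, which are drawn on top of them.

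The limits cut through continuous ranges. In the case library 40 members lay between 1% and 1.1% of smooth muscle UMIs while 32 otherwise matching cells lay between 0.9% and 1%, and in the control library 9 and 5 did. For fibroblast UMIs the counts from 0.9% to 1% and from 1% to 1.1% were 5 and 2 in the case library and 2 and 1 in the control library. For Spp1 they were large, with 109 control and 293 case members at 2 UMIs against 94 and 148 smooth muscle cells at 3. For Notch1, 78 control and 330 case members held 1 UMI, against 35 and 103 cells with 2. Spp1 was not counted at all in 145 control members (36.3%) and 871 case members (50.6%), and RNA free in the droplets can give 1 or 2 UMIs in the others.

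Contractile genes that the choice did not use were looked at next. Outside the 6 markers, 30 genes of the contractile apparatus were listed and 26 of them reached a mean of 50 CPM (the gene's UMIs per 1000000 UMIs, both summed over the cells of a group in a library), the level required of a compared gene. Tpm1, a tropomyosin that lies along actin filaments, stood at 4758 CPM in the control and 5251 CPM in the case members, against 291 and 430 CPM in cells of the same libraries with at least 1% fibroblast and less than 1% smooth muscle UMIs, called fibroblast-marker cells here. Mylk, the kinase that switches on smooth muscle myosin, stood at 1387 and 1197 CPM, against 69.5 and 84.6 CPM there. Lmod1, a leiomodin that nucleates actin filaments, stood at 700.03 and 576 CPM against 37.2 and 39.9 CPM. Myocd, the myocardin named above, was at 90.6 and 81.8 CPM against 3.38 and 6.63 CPM. All 4 genes, picked from the list, were thus more abundant in the members in both libraries. The 30 listed genes summed to 33773 and 29399 CPM in the members, against 2977 and 2971 CPM in the fibroblast-marker cells. Ckb, also listed, was lower in the members than in cells with at least 1% of both marker sets (89.7 and 49.2 against 148 and 170 CPM). The fibroblast-marker cells were chosen for few UMIs of the 6 markers, so these values describe the choice and are no independent support for the label.

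Markers of endothelial, blood and Schwann cells were low, while those of pericytes and fibroblasts were counted at higher levels. The 11 endothelial markers summed to 9.71 CPM in the control and 15.2 CPM in the case members, led by Esam at 7.17 and 5.42 CPM, with Cldn5, Sox17, Tie1, Emcn and Ecscr at 0 in the control and Cldn5 at 0 in the case library. The 11 macrophage markers summed to 11.6 and 21.6 CPM, led by Cd74 at 2.77 and 9.27 CPM, with Ncf4 and Tyrobp at 0 in the control and Aif1 at 0 in the case library. The 7 Schwann cell markers summed to 6.70 and 11.3 CPM, led by S100b at 5.32 and 5.11 CPM, and Sox10, Cdh19, Gfra3 and Mbp were at 0 in the control. T cell markers summed to 0.231 and 0 CPM, with Cd3e, Cd3d, Cd3g and Cd2 at 0 in both and Ccl5 at 0 in the case library. Of 2 erythrocyte markers, Hbb was at 3.24 and 21.9 CPM, and Alas2 was at 0 in the case library. Of 6 skeletal muscle markers, summing to 83.0 and 42.9 CPM, Acta1 led with 60.3 and 27.1 CPM, and Actn3 was at 0 in the control. The 7 pericyte markers summed to 340.3 and 363 CPM, led by Abcc9, a potassium channel subunit that VSMCs also use, at 166 and 218 CPM, while Higd1b and Ndufa4l2 were at 0 in both. In the fibroblast-marker cells the same 7 genes summed to 312 and 261 CPM. The 11 fibroblast markers outside the rule summed to 529 and 430.4 CPM, led by Gsn (gelsolin) at 260.1 and 243 CPM, against 20542 and 15716 CPM in the fibroblast-marker cells, and Ccl11 in the control and Dpep1 in the case library were at 0. Their part in the differences below was not tested.

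**Figure D2:**
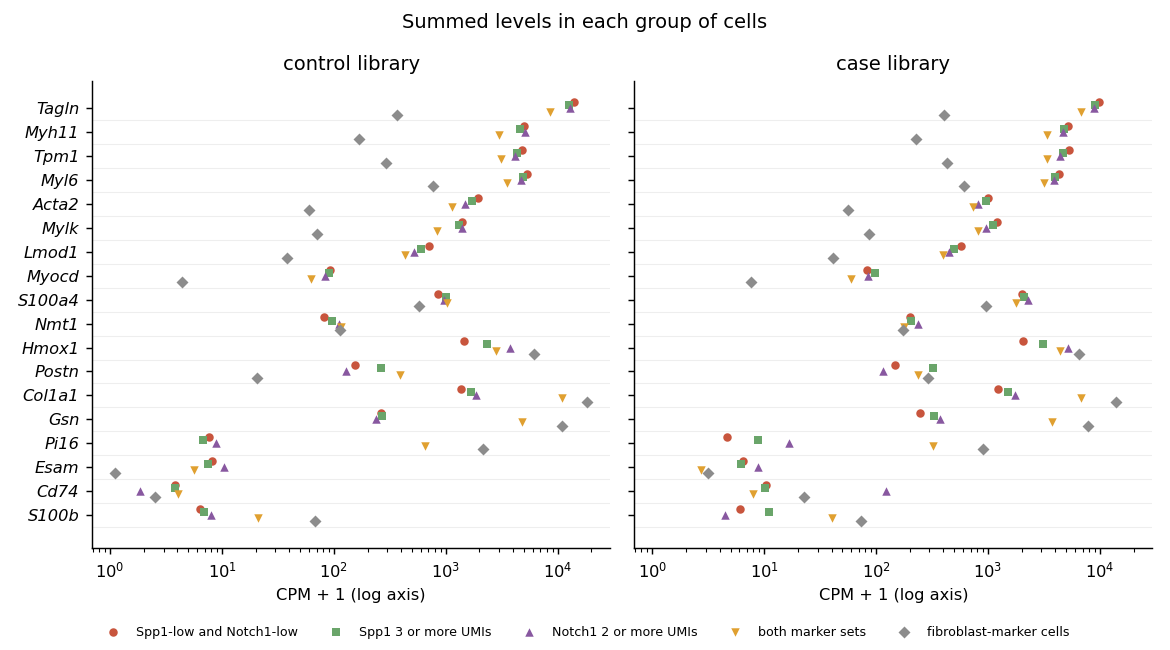
Summed level of 18 genes in 5 groups of cells, in CPM plus 1 on a log axis, in the control (left) and case (right) library; each point is 1 sum over the cells of a group, without error bars. Tpm1, a contractile gene outside the rule, was at 4758 and 5251 CPM in the members and at 291 and 430 CPM in the fibroblast-marker cells, and Hmox1 was lower in the members (1450 and 2039 CPM) than in every other group drawn.

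Which genes of these cells differed between the injured and the uninjured artery was asked next. The log2 ratio of case over control CPM had a median of -0.11 over the 2472 compared genes, and this median was subtracted, so that each difference below is relative to the other genes. At least 1.5-fold higher in the case library were 309 genes (12.5% of those compared) and at least 1.5-fold lower 284 genes (11.5%). Without the subtraction the counts were 213 and 386. Genes close to the 1.5-fold mark came to lie within it under some of the alternative settings. Among them were Myc, Pln, Ogn, Pcna, Mt-co3, Hmox1, Ccn2, Foxo1, Ckb, Id1 and Id3. These shares are the background for the gene lists that follow. Since depth and treatment both differed between the 2 libraries, they cannot be told apart for any single gene.

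Most contractile genes stood near the median of all genes, and those past 1.5-fold were lower in the case library. Acta2 was counted at 1951 CPM in the control and 998 CPM in the case members, a log2 difference of -0.86 (-0.90 to -0.81). Tagln (transgelin) was counted at 14027 and 9830 CPM, a difference of -0.40 (-0.42 to -0.39). Myh11, the smooth muscle myosin heavy chain, was counted at 4975 and 5188 CPM, a difference of 0.17 (0.15 to 0.20). Myl9, a myosin light chain, differed by -0.23, Cald1 (caldesmon) by -0.02 and Cnn1 (calponin) by 0.16. All 6 genes were used by the rule, so these values describe the choice. With at least 2% smooth muscle UMIs required, Acta2 came to -0.66 and Myl9 to -0.07.

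Among the 26 contractile genes outside the rule, 0 were at least 1.5-fold higher and 1 was lower, with a median of -0.07. That 1 was Ckb, the brain-type creatine kinase, at 89.7 and 49.2 CPM, which fell within 1.5-fold with each cell thinned to 2000 UMIs. Tpm2, a second tropomyosin, was at 5731 and 3599 CPM, a difference of -0.56 (-0.58 to -0.54), just short of the 1.5-fold mark, and Tpm1 differed by 0.25 (0.23 to 0.28). The enteric actin Actg2 stood at 599.9 and 399.8 CPM (-0.47) and desmin (Des), the intermediate filament of muscle, at 77.9 and 53.1 CPM (-0.44). Over the alternative settings Actg2 ranged from -0.59 to -0.20 and Des from -0.55 to -0.03. Filamin A (Flna), which crosslinks actin, had the most positive value of the list, 0.32 (0.29 to 0.35). Among 16 genes of ion channels, pumps and receptors of vessel tone, 0 were higher and 1 was lower, phospholamban (Pln), which restrains the calcium pump of the sarcoplasmic reticulum, at 478 and 290.0 CPM (-0.61, -0.69 to -0.53). Rock1, the kinase that sensitises the filaments to calcium, differed by -0.34 and the calcium release channel Ryr2 by 0.32.

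Fibroblast-marker cells of the same 2 libraries, which were chosen for few UMIs of these markers, held Acta2 at 58.9 and 55.0 CPM, a difference of -0.04 (-0.22 to 0.15), and Tagln at 363 and 406 CPM, a difference of 0.22 (0.15 to 0.29). Since the rule used both genes in both kinds of cell, these values are set side by side and nothing is drawn from them.

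**Figure D3:**
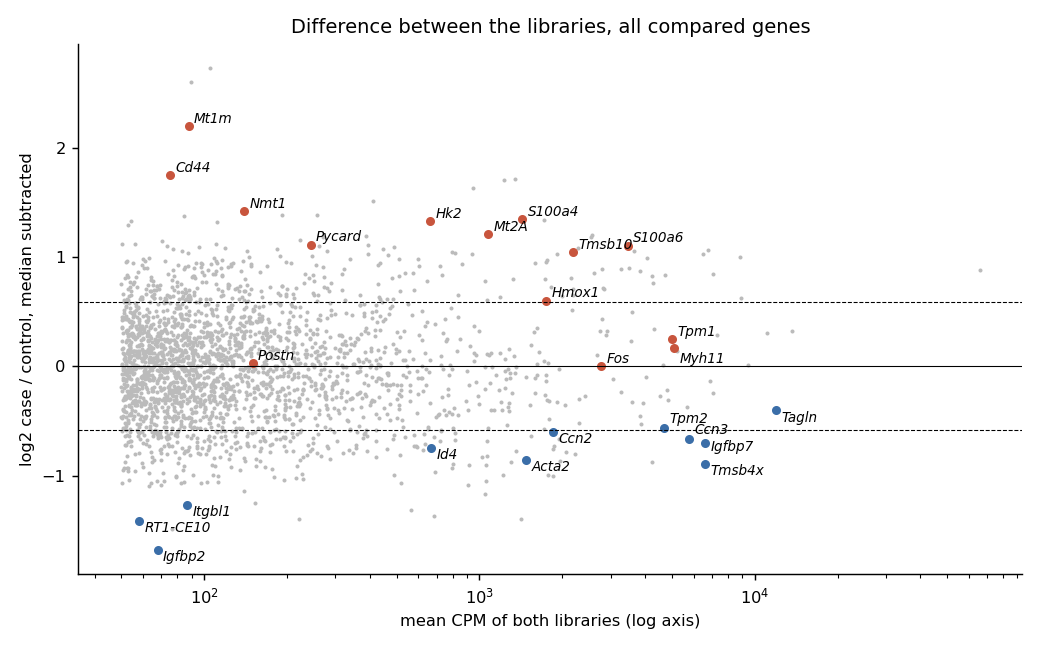
Log2 ratio of case over control CPM in the members, with the median of all compared genes subtracted (y axis), against the mean CPM of both libraries (x axis, log); each of the 2472 points is a gene, and dashed lines mark 1.5-fold and coloured points are labelled genes, blue below 0 and red otherwise. Among labelled genes, Mt1m (2.20), Cd44 (1.75), Nmt1 (1.42) and S100a4 (1.35) stand above the upper line and Igfbp2 (-1.68), RT1-CE10 (-1.41), Tmsb4x (-0.89) and Acta2 (-0.86) below the lower one.

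Genes of the non-muscle cytoskeleton and of the synthetic phenotype parted in both directions. Of 18 compared, 5 were at least 1.5-fold higher in the case library, 4 were lower and 9 were within 1.5-fold, with a median of -0.22. S100a4, a calcium-binding protein used as a synthetic marker, was counted at 852 CPM in the control and 2005 CPM in the case members, a difference of 1.35 (1.30 to 1.40). Its neighbour S100a6 stood at 2316 and 4611 CPM (1.10, 1.07 to 1.14). Nmt1, the N-myristoyltransferase that attaches a fatty acid to proteins and that the study proposed as a synthetic marker, stood at 80.0 and 199 CPM (1.42, 1.26 to 1.59). Cd44, the hyaluronan receptor, stood at 36.5 and 114 CPM (1.75, 1.51 to 2.00), and the actin-binding thymosin Tmsb10 differed by 1.04. Lower were the related thymosin Tmsb4x at 8814 and 4404 CPM (-0.89, -0.91 to -0.87), profilin Pfn1 (-0.83), S100a11 (-1.07) and galectin Lgals1 (-0.67). Vimentin (Vim), the intermediate filament of mesenchymal cells, differed by -0.34, and Myh9 was listed at 0 in both libraries. The list thus did not move as a whole. The same genes in the fibroblast-marker cells differed by 0.80 for S100a4, 0.77 for S100a6, 0.67 for Nmt1, 1.22 for Cd44 and -0.45 for Tmsb4x.

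At the level of single cells, thinned to 2000 UMIs each, the median member held 1 UMI of S100a4 in the control library and 3 in the case library, with the 10th to 90th percentile at 0 to 4 and 0 to 9. At least 1 UMI of Nmt1 was found in 13.3% of control and 33.8% of case members, against 16.3% and 26.9% of fibroblast-marker cells thinned alike. Of Acta2, the median was 3 and 2 UMIs. The ranges of cells overlapped widely for each of the 3 genes.

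For matrix genes the background is that 1879 of all 2472 genes lay within 1.5-fold. Of 17 compared genes of the basement membrane and elastic fibres 0 passed 1.5-fold in either direction. Elastin (Eln), the core of the elastic fibre, stood at 2057 and 1533 CPM (-0.31), the collagen IV chain Col4a1 differed by -0.30, and Loxl1, which crosslinks elastin, had the most positive value, 0.23. Of 23 interstitial and matricellular genes 18 were within 1.5-fold and 1 was higher, osteoglycin (Ogn), a small leucine-rich proteoglycan, at 1629 and 2360 CPM (0.65, 0.61 to 0.68), and 4 were lower. These were Ccn1 and Ccn2, secreted matricellular proteins that YAP activity is known to raise, at -0.77 (-0.85 to -0.69) and -0.60 (-0.64 to -0.56), the collagen VI chain Col6a1 (-0.73), and Igfbp7, an abundant IGF-binding protein, at 8395 and 4782 CPM (-0.70, -0.72 to -0.68). Ccn3, of the same family as Ccn1 and Ccn2 but outside the lists, was among the most abundant genes at 7292 and 4260 CPM (-0.66, -0.69 to -0.64). In the fibroblast-marker cells Ccn2 and Ccn3 differed by 0.51 and 0.29.

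Periostin (Postn), a matrix protein of wound repair, had unlike values in the 2 cell types. It stood at 154 CPM in control and 146 CPM in case members, a difference of 0.03 (-0.11 to 0.16). In the fibroblast-marker cells it stood at 19.7 and 289.9 CPM, a difference of 3.94 (3.71 to 4.17). Thrombospondin 2 (Thbs2) followed the same order, with 0.14 (-0.02 to 0.31) in the members and 1.91 (1.74 to 2.08) in the fibroblast-marker cells. These were the 2 genes whose difference in the members lay furthest below that in the fibroblast-marker cells, which was not tested. On the other side stood Cwc25, a splicing factor, at 1.11 against -0.15, the clock repressor Cry2 at 0.50 against -0.68 and Crem, a cAMP-responsive factor, at 0.71 against -0.43.

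Growth factor and transcription factor genes were few above 50 CPM. Of 7 genes of TGF-beta, PDGF and IGF signalling 0 were higher and 1 was lower, Igfbp2, which binds insulin-like growth factors, at 105 and 30.4 CPM. Its difference of -1.68 (-1.90 to -1.46) was the lowest of all 2472 genes, but came to -1.07 in cells with 4000 to 10000 UMIs, where other genes were lower. The receptor Pdgfrb stood at 301.7 and 386 CPM (0.47, 0.38 to 0.56), and the ligand Pdgfb was at 0.462 and 0.417 CPM. Of 12 transcription regulators of smooth muscle 1 was higher, the forkhead factor Foxo1 (0.68), and 3 were lower, Id1 (-0.66), Id3 (-0.66) and Id4 (-0.74), inhibitors of DNA-binding proteins that answer to bone morphogenetic proteins. With each cell thinned to 2000 UMIs, Foxo1, Id1 and Id3 fell within 1.5-fold. Id2, of the same family, differed by -0.26. Srf stood at 95.02 and 86.7 CPM (-0.02) and Myocd differed by -0.04. Outside the rule, 5 Notch genes were compared. The target Hes1 stood at 856 and 506 CPM (-0.65, -0.71 to -0.58), and the target Hey2 differed by 0.34, the receptor Notch2 by 0.12, the ligand Jag1 by -0.23 and the nuclear partner Rbpj by 0.40.

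Stress and defence genes again differed gene by gene. Of 17 antioxidant genes 2 were higher and 3 were lower. Higher were the metallothionein Mt2A at 683 and 1462 CPM (1.21, 1.15 to 1.27) and Hmox1, haem oxygenase, at 1450 and 2039 CPM (0.60, 0.56 to 0.64). Lower were thioredoxin Txn1 (-0.80) and the peroxiredoxins Prdx1 (-0.77) and Prdx5 (-0.64). A second metallothionein, Mt1m, stood at 33.5 and 142 CPM (2.20, 1.95 to 2.45, and 3.00 in cells with 4000 to 10000 UMIs), and ferritin heavy chain Fth1 differed by -0.45. Of 15 heat shock genes 2 were higher, Hsph1 (0.78) and the mitochondrial chaperonin Hspd1 (0.63), and 0 were lower, and Hspa1b, an inducible HSP70 gene, stood at 2691 and 3125 CPM (0.33). Of 25 immediate early genes 1 was higher, Myc (0.62), and 3 were lower, Ier3 (-0.71), Jund (-0.68) and Klf6 (-0.64). Over all alternatives Myc ranged from 0.29 to 0.71, so its call was lost in some. Fos, a subunit of the AP-1 factor, stood at 2868 and 2655 CPM, a difference of 0.00 (-0.03 to 0.03).

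Of 7 inflammatory genes 1 was higher, Pycard, an inflammasome adaptor, at 162 and 325 CPM (1.11, 1.00 to 1.23, and 0.63 in cells with 4000 to 10000 UMIs), while Icam1, an adhesion molecule for leukocytes, differed by 0.57 and Vcam1 by -0.26. Il1b and Tnf were at 0 in both libraries. Of 8 genes of antigen presentation and interferon response 0 were higher and 4 were lower, the class I genes RT1-CE10 at 86.0 and 29.9 CPM (-1.41, -1.64 to -1.19), RT1-A1 (-0.97) and RT1-A2 (-0.62), and Ifi27 (-0.68). In fibroblast-marker cells these differed by -1.54, -1.16, -0.95 and -0.71, in the same direction. Class I genes are near-identical copies among which reads may be split. Of 10 glycolysis genes 1 was higher, hexokinase Hk2 at 398 and 928 CPM (1.33, 1.26 to 1.41), and 0 were lower, with a median of -0.03. Gapdh, Pgk1 and Ldhb, of the same pathway or its end, differed by -0.58, -0.48 and -0.48, and each came to be at least 1.5-fold lower in some alternative settings. Of 6 cell cycle genes 1 was higher, the replication clamp Pcna at 360.2 and 511 CPM (0.61, 0.53 to 0.70), and 1 was lower, Gas6, a growth-arrest gene (-0.66), while Cdk1 was at 0 in the control members. Of 3 calcification genes, Bmp2, Bmpr2 and Tnfrsf11b, 0 passed 1.5-fold.

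**Figure D4:**
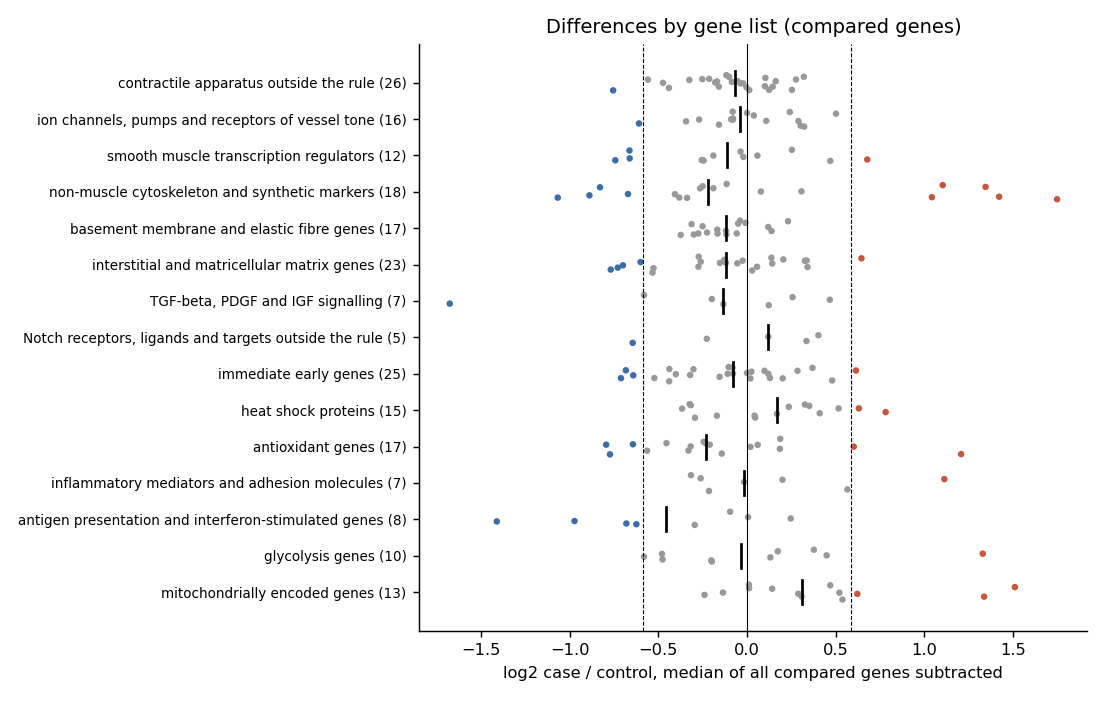
Log2 difference between the libraries in the members for the compared genes of 15 lists, 1 point per gene, with the number compared in brackets, the list median as a black bar and dashed lines at 1.5-fold; coloured points lie past them. Contractile genes cluster near 0 (median -0.07), the synthetic list reaches from -1.07 to 1.75, and antigen presentation has the lowest median (-0.46).

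Genes of the translation and respiration machinery had large differences that call for care. Of 69 ribosomal protein genes compared 24 were higher and 29 were lower, from -1.40 (Rps10l1, with Rps2 next) to 2.60 (Rps19). Of the 2 genes annotated as Rps27a one stood at 666 and 2028 CPM (1.72) and the other at 1482 and 610.3 CPM (-1.17), and reads of near-identical copies may be split between them. In the fibroblast-marker cells Rps19 differed by 2.44, Rps2 by -1.44 and the 2 Rps27a copies by 1.71 and -0.84, much as in the members. Of 13 mitochondrially encoded genes 3 were higher, Mt-atp8 (1.51), Mt-nd3 (1.34) and Mt-co3 (0.62), and 0 were lower, and their sum was 62158 and 66063 CPM. The median share of a member's UMIs in genes with an Mt- symbol was 6.07% and 6.44%. In the fibroblast-marker cells Mt-atp8 and Mt-nd3 differed by 1.60 and 1.14.

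The genes at least 1.5-fold higher in the case members had a median difference of 0.57 in the fibroblast-marker cells, over the 266 that could be compared in both, and the lower ones a median of -0.68 over 195, where the median of all compared genes was set to 0. As a group these differences were thus not particular to the members. Both kinds of cell come from the same 2 libraries, so where their differences are alike, the library and the injury cannot be told apart.

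The members were next set beside the other smooth muscle cells of their own library, which the limits on Spp1 and Notch1 had split off, and these plain CPM ratios describe that split. Depth again moved with the groups, with medians of 14027 and 6570 UMIs in the Spp1 group and 14935 and 6381 UMIs in the Notch1 group below, against 11305 and 5343 in the members. Against 504 control and 476 case cells with 3 or more Spp1 UMIs, 0 of 2243 genes (0%) were at least 1.5-fold higher in the members in both libraries and 5 (0.223%) were lower. One was Spp1 itself, at 83.9 against 495 CPM in the control and 119 against 725 CPM in the case library. The others were Postn, Hmox1, the adhesion molecule Vcam1 and the galactosyltransferase B4galt5. Postn stood at 154 against 262 CPM in the control and 146 against 319 CPM in the case library. Of contractile genes outside the rule, Tpm1 stood at 4758 against 4362 CPM in the control and 5251 against 4700.5 CPM in the case library, and Mylk at 1387 against 1323 CPM and 1197 against 1111 CPM.

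Against 78 control and 161 case cells with fewer than 3 Spp1 and 2 or more Notch1 UMIs, 16 of 2266 genes (0.706%) were higher in the members in both libraries and 63 (2.78%) were lower. Notch1 itself, whose limit made this split, was 1 of the 63. Ranked by the smaller of the ratios in the 2 libraries and apart from the genes of the rule, the first 5 on the low side were Hmox1, Mknk2 (a kinase of translation initiation), Cd44, Vasn and B4galt5. Hmox1 stood at 1450 against 3747 CPM in the control and 2039 against 5158 CPM in the case library, a log2 ratio of -1.37 (-1.43 to -1.31) and -1.34 (-1.38 to -1.30). Gclc, which makes glutathione, was lower too, at -1.10 and -0.89. On the high side, ranked alike, stood Fos, Gmcl1, Hes1, Egr2 and Nr4a1. Fos stood at 2868 against 1140 CPM in the control and 2655 against 1332 CPM in the case library, a log2 ratio of 1.33 (1.25 to 1.41) and 1.00 (0.92 to 1.07). Hes1, a target of Notch receptors, had ratios of 0.92 and 0.83, so it was higher in the members than in cells with 2 or more Notch1 UMIs.

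Against 65 control and 65 case cells that held at least 1% of both marker sets, 62 of 2255 genes (2.75%) were higher and 176 (7.8%) were lower in both libraries. Rule genes were among them, Col1a1, Col3a1, Dcn, Lum and Spp1 on the low side and Myh11 on the high side. The median depth of these cells was 4935 UMIs in the control library, below the 11305 of the members. In the case library it was 9363 UMIs, above the 5343 of the members. Lower by the most were fibroblast genes and others that the rule on fibroblast markers goes with, such as Pi16 at 6.70 against 647 CPM in the control and 3.65 against 325 CPM in the case library, and the secreted Tnfaip6 at 22.2 against 1309 CPM and 21.9 against 1412 CPM. Pcp4l1, Id1, Zfhx3 and Mrvi1, which relays nitric oxide signals to calcium stores, were among the highest. Pcp4l1 had ratios of 1.41 and 1.13 and Id1 of 1.17 and 1.13.

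Variation between the members was measured as the variance over the mean of UMI counts in cells thinned to 2000 UMIs, where pure counting gives a value near 1. Over genes with a mean of at least 0.1 UMI the median was 1.07 in the control (2545 genes, 399 cells) and 1.08 in the case library (2356 genes, 1720 cells). AC134224.3 (42.9 in the control and 20 in the case library) and AY172581.24 (34.1 and 10.1), both named by a sequence accession, had the highest values. Such accession-named genes were not counted in the mitochondrial share, which took genes with an Mt- symbol alone, whatever they encode. Some mitochondrial genes ranked between Hmox1 and Fos in the control library. Leaving accession-named and mitochondrial genes aside, Hmox1 ranked first and Fos second in both libraries. The value of Hmox1 was 9.83 in the control and 9.13 in the case library. The median member held 1 UMI of it in both, while the 90th percentile was 8 and 12 UMIs and the highest cell held 34 and 40. At least 1 UMI was found in 56.1% of control and 65.7% of case members, against 87.1% and 88.2% of fibroblast-marker cells thinned alike.

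The value of Fos was 6.44 and 5.85, with a median of 4 UMIs in both libraries and a 90th percentile of 14 in both. Egr1 (4.97 and 4.92), Hspa1b (5.94 and 4.27), Dusp1, a phosphatase that ends MAP kinase signals (3.87 and 3.83), and Ccn2 (4.98 and 3.48) were also far above the median gene. The contractile markers varied too, with 5.41 and 3.24 for Tagln and 2.76 and 3.66 for Myh11, but nearly every member held them. Fibroblast-marker cells thinned alike, which were chosen for few smooth muscle UMIs, still held a UMI of Myh11 in 26.5% of control and 26.9% of case cells. A few genes were high in few cells. Ifi27l2b, an interferon-induced gene, was found in 2.76% of control and 6.51% of case members with up to 8 and 14 UMIs, against 54.5% and 65.2% of fibroblast-marker cells. Des was found in 7.02% and 6.92% of members with up to 7 and 9 UMIs, against 0.551% and 0.497% of fibroblast-marker cells.

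**Figure D5:**
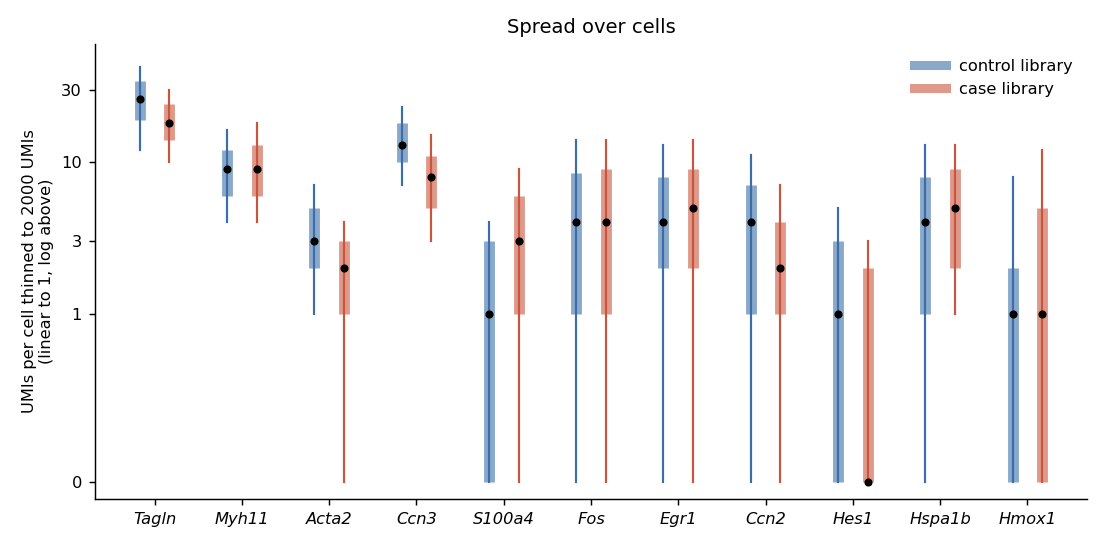
UMIs of 11 genes per member thinned to 2000 UMIs (y axis, linear up to 1 and logarithmic above), for the control and case library; dots are medians over cells, thick bars the middle 50% and thin lines the 10th to 90th percentile. Tagln and Myh11 are well above 0 in nearly all cells, whereas Hmox1 has a median of 1 with a 90th percentile of 8 and 12.

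Across cells Hmox1 and Fos, the 2 most variable genes outside mitochondrial and accession-named ones, ran against each other. Pearson's r between log-transformed thinned counts of Hmox1 and Fos was -0.49 over 399 control cells and -0.52 over 1720 case cells, and no other gene with a mean of at least 0.1 UMI in both libraries was as negative with Hmox1 in both. The typical gene had r near 0 with Hmox1 (median 0.01 and 0.00). Among the highest with Hmox1 were the ferritin chains Ftl1 (0.36 and 0.39) and Fth1 (0.34 and 0.47), which store iron, Klhl21 (0.32 and 0.41), the asparagine tRNA synthetase Nars (0.32 and 0.37) and the transcription factor Cebpb (0.36 and 0.31). Lowest after Fos were Ccn2 (-0.32 and -0.33), Egr1 (-0.30 and -0.42), Hes1 (-0.29 and -0.33) and Ccn3 (-0.28 and -0.28).

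With Fos went Egr1 (0.585 and 0.669), Btg2 (0.53 and 0.58), Fosb (0.49 and 0.55), Atf3 (0.43 and 0.42) and Zfp36l1 (0.42 and 0.46), a group of immediate early genes, as well as Hes1 (0.41 and 0.46). Tagln went with other contractile genes, above all Tpm2 (0.67 and 0.41), Myl6 (0.69 and 0.39) and Myl9 (0.595 and 0.357), the last of which the rule also used. Cox8a, of the respiratory chain, was at 0.40 and 0.26. For Tagln r was 0.64 and 0.35 with Tmsb4x, -0.53 and -0.21 with the accession-named AC134224.3, and -0.14 and -0.15 with Hmox1. All these values are descriptions over cells that share a library. Depth moved little with Hmox1 (r with log UMIs before thinning 0.02 and 0.10) and Fos (0.00 and -0.10) and more with Tagln in the control library (0.37). Whether cell digestion had a part in the stress and immediate early genes was not tested.

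Genes that the study names in its account of smooth muscle cells, as markers of its clusters or as disease-related genes, could be followed in the members. Of 22 such genes 11 were compared, of which 4 were higher, S100a4, Nmt1, Pycard and Pcna, and 2 were lower, Hes1 and Ccn1, all given above. Mt-cyb, of the mitochondrial genome, stood at 7920 and 6207 CPM (-0.24), Lmna, a lamin, at 1218 and 1070 CPM (-0.08), Akt1, a survival kinase, at 73.5 and 52.3 CPM (-0.38) and Ep400, a chromatin remodeller, at 91.1 and 93.6 CPM (0.15). Below 50 CPM were Tmem140 (21.96 and 24.8 CPM), Rpa3 (27.7 and 12.0), Ap3s2 (27.1 and 16.3), Igfbp4 (46.9 and 31.4), Gpx3 (22.7 and 24.1), Tnfaip6 (22.2 and 21.9), Cdk4 (27.3 and 15.2), Rb1 (15.3 and 8.96), Mtor (19.2 and 16.98) and the Pdgfb given above. Cyp7a1 was at 0 in both, which allows up to 3 UMIs in each sum.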

How the data were processed

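The authors deposited 1 matrix of UMI counts per gene and cell barcode for both libraries, made with Cell Ranger 3.1.0 (per the file headers), and Rnor_6.0 is the build in the submitters' processing notes. Barcodes were assigned to the libraries by the barcode totals that the study gives for each group. Whether reads were down-sampled before deposit is not given in the sources used here. The members and gene lists were chosen with earlier results of these data known. UMIs were summed over the cells of a group and library and given as CPM, with exact Poisson and conditional binomial 95% intervals (Clopper-Pearson for shares). A gene was compared if its CPM averaged 50 or more over both libraries, and the median log2 ratio was subtracted. Cells were thinned to 2000 UMIs for variation and correlations. Named were the rule genes, up to 4 genes with the largest difference and the most abundant gene of each list, the 10 extremes in each direction, the 10 most abundant, the 10 most variable, the 5 with the largest ratio against each other smooth muscle group and the genes the study names. Not all of these are printed, some genes of the lists are not reported here, and genes named beyond them were chosen after their values were seen. Doublets were kept, with Scrublet calls left out as an alternative. Analyses used Python 3.11.15 with scanpy 1.11.5, pandas 2.3.3, scipy 1.17.1, numpy 2.4.6 and matplotlib 3.10.9, and edgeR in R for TMM factors alone, and were checked on simulated data.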

Additional observations from a re-analysis of the deposited data

How the results depend on the processing

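No paired analysis was possible because each group is 1 library in which the arteries of both rats were pooled, and no replicate could be left out. The numbers of genes at least 1.5-fold higher in case (309) and genes at least 1.5-fold lower in case (284) became 512 and 510 with a mean of at least 20 CPM, 182 and 166 with at least 100 CPM, and 2202 and 2392 without a filter, where more or fewer genes were compared. The other alternatives left both counts within 1.5 times. The median plain log2 ratio over tested genes, -0.11, became 0.02501 with TMM scaling. It became 0.007124 without ribosomal protein genes and some genes named by an accession or LOC number in the total. The value for members as percent of kept control cells (19.96) became 15.86 with at least 2% smooth muscle UMIs, 17.36 with less than 0.5% fibroblast UMIs, 49.07 without limits on Spp1 and Notch1 and 45.67 with these limits on thinned cells. The value for members as percent of kept case cells (36.92) became 19.73, 33.59, 50.59 and 47.59 in the same order, and 39.04 with at least 4000 UMIs. The change of Spp1, 0.61, turned to -0.13 without these limits and to -0.21 with limits on thinned cells. Of 63 named genes past 1.5-fold, 55 stayed past it with limits on thinned cells, where Hmox1 came to 0.36, Ccn2 to -0.43 and Hes1 to -0.52, 54 in cells with 4000 to 10000 UMIs and 51 with each cell thinned to 2000 UMIs. Over all alternatives Acta2 ranged from -0.97 to -0.66, S100a4 from 1.17 to 1.48 and Nmt1 from 1.27 to 1.68. Several printed genes close to 1.5-fold fell within it in some settings, with ranges of 0.29 to 0.71 for Myc, -0.72 to -0.42 for Pln, 0.43 to 0.79 for Ogn, 0.16 to 0.73 for Mt-co3, 0.40 to 0.67 for Pcna, 0.52 to 0.71 for Foxo1, 0.47 to 0.81 for Hspd1, 0.36 to 0.78 for Hmox1, -0.96 to -0.40 for Ccn2, -1.21 to -0.53 for Ier3, -1.09 to -0.51 for Col6a1 and -0.87 to -0.47 for Ckb. Hes1, Id1, Id3, Ccn3, Gas6, Prdx5 and RT1-A2 also did so in 1 or 2 settings. The setting of 4000 to 10000 UMIs, which left 117 control and 1313 case cells, moved Igfbp2 from -1.68 to -1.07, Mt1m from 2.20 to 3.00, Pycard from 1.11 to 0.63, Mt-atp8 from 1.51 to 0.98, RT1-A1 from -0.97 to -0.64 and Dusp1 from -0.30 to -0.89, and thinning moved Rps19 from 2.60 to 3.19. Printed genes that came to pass 1.5-fold in some setting were Gapdh (to -0.69), Ldhb (-0.64), Pgk1 (-0.59), Tpm2 (-0.67), Actg2 (-0.59), Akt1 (-0.65), Vcam1 (-0.72), Mt-cyb (-0.77), Icam1 (0.63), Abcc9 (0.71) and Bmp2 (0.65). Leaving out Scrublet doublets removed 1 member and says little, since 12 control and 3 case cells were called. The limits on thinned cells, the total without ribosomal genes and the removal of barcodes found in both libraries were chosen after seeing the data.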
